A study of Mus musculus with 16 samples.

Results

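The ligands and receptors of the TNF superfamilies were followed in mouse kidney cortex after loss of the tumour suppressor genes Vhl and Pbrm1 from tubule epithelium. The members were 41 of the 22180 genes measured, 15 ligands and 26 receptors. They were taken by name: every gene whose annotated symbol begins with Tnfrsf or Tnfsf, leaving out Tnfrsf12a, together with Cd27, Cd40, Cd40lg, Cd70, Eda2r, Edar, Fas, Fasl, Lta, Ltb, Ltbr, Ngfr and Tnf. Each was read by 1 probe set of its own. A probe set shared by Tnfsf12, Tnfsf13 and a fused transcript of both, and another shared by Tnfrsf18 and Gm16008 were left out because they do not name 1 gene, so neither Tnfsf12 nor Tnfsf13 is among the members.

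The study compared 4 genotypes with 4 arrays each to look for early transcriptional changes on the way to clear cell renal cell carcinoma, the kidney cancer in which VHL and PBRM1 are often lost. Vhl encodes the part of a ubiquitin ligase that marks hypoxia-inducible factors for destruction, and Pbrm1 encodes a subunit of the chromatin remodeler PBAF. Besides Ksp-Cre, which all 3 mutant groups carried, Vhl mutants had floxed Vhl, Pbrm1 mutants had floxed Pbrm1, and double mutants had both genes floxed. This transgene places the Cre recombinase under the promoter of Cdh16, a cadherin of tubule epithelium, so the other cells of the cortex keep both genes. All mice were 3 months old, untreated and on a normal diet. The mutants had a mixed background of C57BL/6, BALB/c and 129, whereas the wild-type mice were C57BL/6, so strain and genotype cannot be told apart in any comparison with wild type. The labels do not say whether wild-type mice carried Ksp-Cre. Nor do they tie each array to an animal of its own: array descriptions hold 2 numbers per group, so p-values may rest in part on technical rather than animal-to-animal spread.

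TNF superfamily ligands are mostly membrane proteins that act as trimers and can be shed from the cell surface by proteases. Their receptors fall into those with a death domain, which can engage caspases through adaptor proteins, those that recruit TRAF adaptors and activate NF-kB transcription factors and kinases, and decoys that bind ligand without signalling. In the kidney, TNF and its receptors are known mainly from inflammation and tubular injury, where tubule cells, endothelium and immune cells can all produce or sense them.

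Expression is given on the log2 scale, where a difference of 1 is 2-fold. The medians of the 16 arrays lay between 5.18 and 5.27. Genes with a group mean below 3.72, the highest of the arrays' lower quartiles, cannot be told from background, and for them only the level is reported. A gene was called where the adjusted p of limma's moderated test, corrected over all 22180 genes, was under 0.05. The probe sets of the deleted genes were called in none of the 7 comparisons (double mutant against wild type, -0.12 ± 0.10 SE for Vhl and -0.07 ± 0.07 for Pbrm1), and since each may cover exons that stay in place and also reads cells without Cre, they check nothing about the labels. The 7 markers of the proximal tubule, the most abundant tubule of the cortex, averaged 11.66 to 11.69 in wild-type, 11.54 to 11.67 in Vhl mutant, 11.66 to 11.71 in Pbrm1 mutant and 11.45 to 11.55 in double mutant arrays, and 2 of them fell in double mutants, the glucose transporter gene Slc5a2 by 0.75 and the phosphate transporter gene Slc34a1 by 0.16 on the log2 scale. In 3 arrays, Vhl mutant replicate 2, Pbrm1 mutant replicate 3 and double mutant replicate 3, the median adipocyte marker lay 0.57, 0.92 and 0.93 above wild type. Of the 24 calls of members, 8 ended without these 3 arrays, and the same 8 ended with the mean of the arrays of a description number; each is named below with its values. Double mutant replicates 2 and 3 have the same description, but their values differ by as much as those of other arrays of a group (root mean square difference 0.269, against 0.210 to 0.292). Over all genes, replicate 3 was closer to replicate 4 (0.228) than to replicate 1 (0.274) or 2, whose number it bears. The main fit keeps the number in its description, so its block may be wrong for this array.

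Most members were below background or were not called. Of the 41 members, 29 were at or above background in every group, 2 (Tnfrsf17 and Tnfsf8) in some groups, and 10 in none: the ligands Cd40lg, Cd70, Fasl, Lta, Tnfsf4, Tnfsf11 and Tnfsf18 and the receptors Cd27, Eda2r and Tnfrsf13b. In all, 9 members, 4 ligands and 5 receptors, were called in at least 1 of the 7 comparisons, and 32 in none. The share of all genes called in at least 1 comparison was not counted. This total and those by receptor type below thus have no such share to stand beside. The largest number of calls was in the double mutants, where 7 members (17.1%) rose against wild type and 0 fell, beside 6.64% of all genes higher and 5.56% lower. These were the ligands Tnfsf13b, Tnfsf9 and Tnfsf10 and the receptors Tnfrsf10b, Tnfrsf22, Tnfrsf14 and Tnfrsf1a. The median log2 fold change of all 41 members, those below background included, was 0.06, beside -0.02 over all genes. It was 0.15 over the 29 members at or above background in every group.

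The single mutants moved fewer members. Against wild type, 2 of the 41 rose in Vhl mutants (Tnfsf13b and Tnfsf9) and 0 fell, beside 2.04% of all genes higher and 1.79% lower, and the members' median log2 fold change was 0.09 beside -0.01 over all genes. In Pbrm1 mutants, 1 member (Tnfrsf1b) fell and 0 rose, beside 2.45% of all genes lower and 1.59% higher, with a median of 0.00 beside -0.01. Over the 29 members at or above background in every group, the medians were 0.13 in Vhl mutants and -0.02 in Pbrm1 mutants. Double mutants exceeded Vhl mutants in 2 members (Tnfrsf10b and Tnfrsf14), beside 3.8% of all genes higher and 2.55% lower. They exceeded Pbrm1 mutants in 6 (Tnfsf9, Tnfsf13b, Tnfrsf1a, Tnfrsf1b, Ltb and Tnfrsf10b), beside 6.82% higher and 3.37% lower. Vhl mutants exceeded Pbrm1 mutants in 5 members (Tnfsf13b, Tnfsf9, Tnfrsf1b, Tnfrsf1a and Ltb), beside 4.71% of all genes higher and 2.75% lower. No member was called lower in any of these last 3 comparisons, which compare mutants of the same labelled strain mix. The interaction, by how much the change in double mutants exceeds both single changes added together, was called for 1 member, Tnfrsf1a, which was higher, beside 1.78% of all genes higher and 0.852% lower. Wild type enters the interaction, so strain and genotype cannot be told apart there either. The comparisons share their arrays and are not independent of each other.

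**Figure D1:**
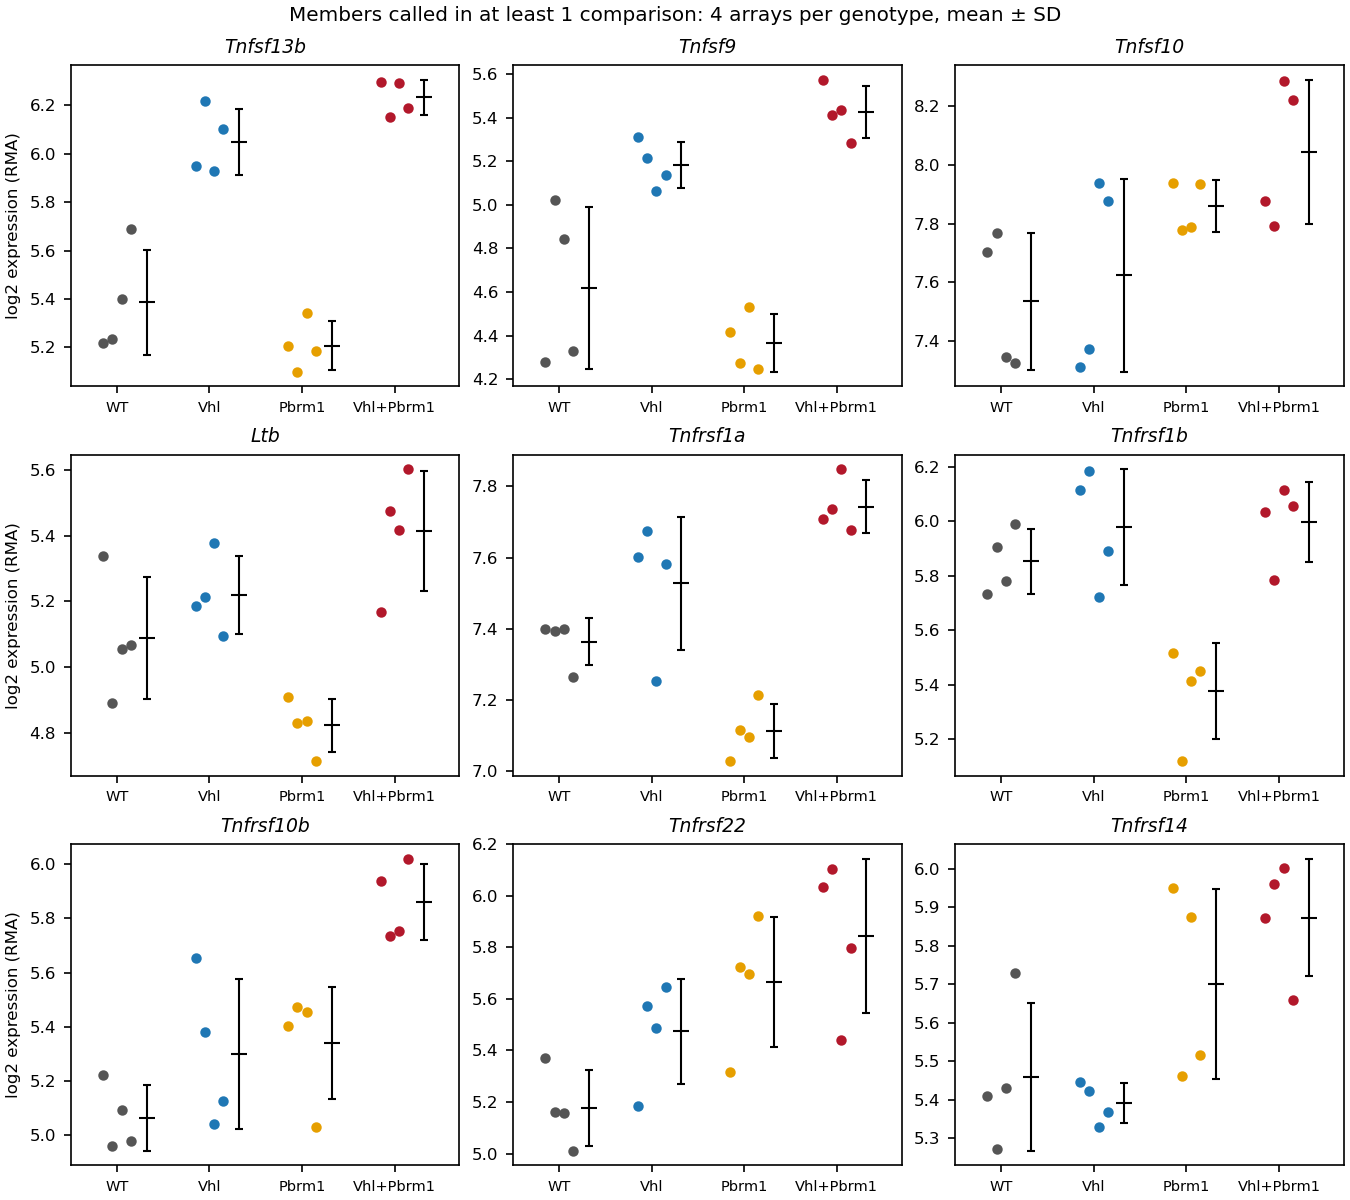
Log2 expression (vertical axis, its own range in each panel) of the 9 members called in at least 1 comparison, in 4 arrays for each of wild-type (WT), Vhl mutant, Pbrm1 mutant and double mutant (Vhl+Pbrm1) kidneys; points are arrays and the black bar is the mean ± SD. Tnfsf13b and Tnfsf9 are high in both groups that lack Vhl, Tnfrsf1a, Tnfrsf1b and Ltb are lowest in Pbrm1 mutants, and the arrays of Tnfsf10 fall into a low and a high pair in 3 of the 4 groups.

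Tnfsf13b, which encodes the B cell survival factor BAFF, had the smallest adjusted p of the family. It read 5.22, 5.23, 5.40 and 5.69 in the wild-type arrays, 5.95, 6.22, 5.93 and 6.10 in Vhl mutants, 5.20, 5.10, 5.34 and 5.19 in Pbrm1 mutants, and 6.30, 6.15, 6.29 and 6.19 in double mutants. Every array of both groups lacking Vhl was above every array of the other groups. It rose 1.58-fold in Vhl mutants against wild type (log2 fold change 0.66 ± 0.11 SE, limma adjusted p = 0.00113, n = 4 arrays per group) and 1.80-fold in double mutants (0.84 ± 0.11, adjusted p = 1.8e-05). Against Pbrm1 mutants it was 1.79-fold higher in Vhl mutants (adjusted p = 2.7e-05) and 2.03-fold higher in double mutants (adjusted p = 1.6e-06). Double mutants and Vhl mutants differed by 0.18, with a 95% confidence interval from -0.05 to 0.41 (adjusted p = 0.40). The Pbrm1 mutants differed from wild type by -0.18, with an interval from -0.40 to 0.05 (adjusted p = 0.47).

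The receptors of BAFF did not pass the test in any comparison. Tnfrsf13c, the main BAFF receptor of B cells, had group means of 5.85 in wild-type, 6.03 in Vhl mutant, 6.07 in Pbrm1 mutant and 5.90 in double mutant kidneys, and its difference between double mutants and wild type had an interval from -0.17 to 0.26. Tnfrsf13b, the receptor TACI, was below background in every group, with group means from 3.17 to 3.36. Tnfrsf17, the plasma cell receptor BCMA, was below background in wild-type, Vhl mutant and double mutant kidneys (3.60, 3.65 and 3.71) and read 3.85 in Pbrm1 mutants. Of the B cell markers, 0 of 6 were called in Vhl, Pbrm1 or double mutants against wild type. The mean level of these markers per array ran from 3.82 to 4.04 in wild-type, from 4.02 to 4.19 in Vhl mutant, from 3.92 to 4.03 in Pbrm1 mutant and from 3.91 to 4.04 in double mutant kidneys, and Ms4a1, the B cell surface protein CD20, was below background in all 4 groups. The 6 plasma cell markers averaged 5.55 to 5.62 in wild-type, 5.70 to 5.79 in Vhl mutant, 5.54 to 5.72 in Pbrm1 mutant and 5.80 to 6.08 in double mutant arrays, and every double mutant array was above every array of the other groups. The list did not rise as a whole. In double mutants against wild type 1 of the 6 was called, 3 had a log2 fold change above 0, and the median was 0.02. One gene of that list, Jchain, which joins the units of secreted immunoglobulin, was higher than wild type by 2.20 ± 0.22 SE in double mutants (limma adjusted p = 9.0e-07), by 1.07 ± 0.22 in Vhl mutants (adjusted p = 0.0083) and by 0.83 ± 0.22 in Pbrm1 mutants (adjusted p = 0.039). The Pbrm1 call ended without the 3 arrays of raised adipocyte markers (0.065). Xbp1, which tubule cells also express, was lower in Vhl mutants (-0.50 ± 0.12, adjusted p = 0.025). The part of plasma cells in the level of Tnfsf13b was not tested.

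Tnfsf9, the ligand 4-1BBL of the costimulatory receptor 4-1BB, had the same order of groups. It read 4.28, 5.02, 4.84 and 4.33 in the wild-type arrays, 5.31, 5.21, 5.06 and 5.14 in Vhl mutants, 4.42, 4.28, 4.53 and 4.25 in Pbrm1 mutants, and 5.57, 5.41, 5.43 and 5.28 in double mutants. The wild-type arrays were widely spread, yet none reached the lowest Vhl mutant array. Tnfsf9 rose 1.74-fold in double mutants against wild type (log2 fold change 0.80 ± 0.15 SE, limma adjusted p = 0.0010). It was 2.07-fold higher in double than in Pbrm1 mutants (adjusted p = 6.1e-05) and 1.76-fold higher in Vhl than in Pbrm1 mutants (adjusted p = 0.0011). In Vhl mutants against wild type it rose 1.48-fold (0.56 ± 0.15, adjusted p = 0.039), but that call ended without wild-type replicate 1 or 4, double mutant replicate 3 or any of the Vhl mutant replicates, with an adjusted p of up to 0.13. It also ended with the mean of the arrays of a description number (adjusted p = 0.051) and when the 3 arrays of raised adipocyte markers were left out (0.13), and 4 of 13 other settings kept it. The receptor, Tnfrsf9, was not called in any comparison: its group means ran from 4.38 in double mutants to 4.62 in Pbrm1 mutants, and the interval of double mutants against wild type ran from -0.41 to 0.24.

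Tnfsf10 encodes TRAIL, a ligand that can trigger apoptosis through a death receptor. Its arrays read 7.70, 7.77, 7.35 and 7.32 in wild-type, 7.31, 7.37, 7.94 and 7.88 in Vhl mutant, 7.94, 7.78, 7.79 and 7.93 in Pbrm1 mutant and 7.88, 7.79, 8.29 and 8.22 in double mutant kidneys. Wild-type and Vhl mutant arrays each fell into a low and a high pair that matched the description numbers. The double mutants did so too, except that replicate 3 lay with replicate 4 although its description bears the number of replicates 1 and 2. All double mutant arrays were above all wild-type arrays, and Tnfsf10 rose 1.43-fold (log2 fold change 0.52 ± 0.15 SE, limma adjusted p = 0.024). The call ended without wild-type replicate 3 or 4 or double mutant replicate 3 or 4 (adjusted p up to 0.091), with the mean of the arrays of a description number (0.076), when the 3 arrays of raised adipocyte markers were left out (0.084), and where at least a 1.5-fold change was asked for.

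Ltb, which encodes lymphotoxin beta, a ligand that shapes lymphoid tissue, separated the Pbrm1 mutants from the double mutants. Its arrays read 5.34, 4.89, 5.05 and 5.07 in wild-type, 5.19, 5.21, 5.38 and 5.09 in Vhl mutant, 4.91, 4.83, 4.83 and 4.71 in Pbrm1 mutant and 5.17, 5.48, 5.42 and 5.60 in double mutant kidneys. Every Pbrm1 mutant array was below every array of the Vhl and double mutants. Ltb was 1.52-fold higher in double than in Pbrm1 mutants (log2 fold change 0.60 ± 0.12 SE, limma adjusted p = 0.0016) and 1.32-fold higher in Vhl than in Pbrm1 mutants (0.40 ± 0.12, adjusted p = 0.043). The second call ended when double mutant replicate 2 or 3, any Pbrm1 mutant array or Vhl mutant replicate 1, 2 or 3 was left out (adjusted p up to 0.13). It also ended with the mean of the arrays of a description number (0.10) and when the 3 arrays of raised adipocyte markers were left out (0.17), and 6 of 13 other settings kept it. Against wild type, neither the difference of double mutants (0.34, interval 0.09 to 0.58, adjusted p = 0.072) nor that of Pbrm1 mutants (-0.27, interval -0.51 to -0.02, adjusted p = 0.26) passed the test. The receptor Ltbr, which is found on epithelium and stroma, was not called in any comparison, although all its Pbrm1 and double mutant arrays (8.20 to 8.27 and 8.11 to 8.32) were above all its wild-type arrays (8.02 to 8.08).

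Tnf itself, the founding ligand, was not called in any of the 7 comparisons. Its arrays read 4.50, 4.34, 4.56 and 4.58 in wild-type, 4.58, 4.70, 4.43 and 4.61 in Vhl mutant, 4.26, 4.27, 4.47 and 4.55 in Pbrm1 mutant and 4.62, 4.67, 4.71 and 4.52 in double mutant kidneys, and the groups overlapped. Double mutants differed from wild type by 0.13, with a 95% interval from -0.09 to 0.35 (limma adjusted p = 0.52). Vhl mutants differed from wild type by 0.09, with an interval from -0.13 to 0.31 (adjusted p = 0.76), and Pbrm1 mutants by -0.11, with an interval from -0.33 to 0.11 (adjusted p = 0.71). Lta, the related ligand that binds the same receptors, was below background in every group, with group means from 3.52 to 3.64.

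Tnfrsf1a encodes TNFR1, the broadly expressed death domain receptor of TNF. It read 7.40, 7.39, 7.40 and 7.26 in the wild-type arrays, 7.60, 7.67, 7.25 and 7.58 in Vhl mutants, 7.03, 7.11, 7.09 and 7.21 in Pbrm1 mutants, and 7.71, 7.74, 7.85 and 7.68 in double mutants. The 4 double mutant arrays were the highest of all 16, and the 4 Pbrm1 mutant arrays the lowest. Tnfrsf1a rose 1.30-fold in double mutants against wild type (log2 fold change 0.38 ± 0.09 SE, limma adjusted p = 0.0050), was 1.55-fold higher in double than in Pbrm1 mutants (0.63 ± 0.09, adjusted p = 3.3e-05) and 1.33-fold higher in Vhl than in Pbrm1 mutants (0.42 ± 0.08, adjusted p = 0.0031). The single mutants did not pass against wild type, at 0.16 for Vhl (interval -0.01 to 0.34) and -0.25 for Pbrm1 (interval -0.43 to -0.07, adjusted p = 0.11). The double mutant effect exceeded the sum of the single effects by 0.46 ± 0.12 (interaction, adjusted p = 0.044). That call held when Vhl mutant replicate 1, 2 or 4, wild-type replicate 4 or Pbrm1 mutant replicate 4 was left out, which are 5 of the 16 arrays, and ended without any other array (adjusted p up to 0.082). Of 13 other settings, 4 kept it; the adjusted p was 0.21 with the mean of the arrays of a description number and 0.13 when the 3 arrays of raised adipocyte markers were left out.

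Tnfrsf1b encodes TNFR2, the TRAF-binding receptor of TNF on immune cells and endothelium, and was the member that fell in Pbrm1 mutants. Its arrays read 5.73, 5.90, 5.78 and 5.99 in wild-type, 6.12, 6.18, 5.72 and 5.89 in Vhl mutant, 5.52, 5.12, 5.42 and 5.45 in Pbrm1 mutant and 6.04, 5.79, 6.12 and 6.06 in double mutant kidneys. All Pbrm1 mutant arrays lay below the arrays of the other 3 groups, which overlapped among themselves. Against wild type Tnfrsf1b was 1.39-fold lower in Pbrm1 mutants (log2 fold change -0.48 ± 0.12 SE, limma adjusted p = 0.026). That call ended without wild-type replicate 2 or 4 or Pbrm1 mutant replicate 2 or 3 (adjusted p up to 0.084). It also ended with the mean of the arrays of a description number (adjusted p = 0.11), when the 3 arrays of raised adipocyte markers were left out (0.081), and where at least a 1.5-fold change was asked for. Against Pbrm1 mutants it was 1.54-fold higher in double mutants (adjusted p = 0.0013) and 1.52-fold higher in Vhl mutants (adjusted p = 0.0023), and both calls held without any array. Double mutants and wild type differed by 0.15, with an interval from -0.10 to 0.40 (adjusted p = 0.53).

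Tnfrsf1a, Tnfrsf1b and Ltb, a ligand and the TNF receptors that were all lower in Pbrm1 mutants than in Vhl and double mutants, are shown with their promoters. Tnfsf13b and Tnfsf9 were lower there as well and are not shown. The plan named members called in double mutants against wild type, which leaves out Tnfrsf1b and Ltb. The windows run from 250 bases before to 50 bases after the start site, 300 bases in all, and come from RefSeq (build GRCm38.p6). They are written 5′ to 3′ on the gene's strand, with matches to a STAT motif (TTCNNNGAA, which reads the same on both strands) and, in Ltb, to a consensus NF-kB motif of 10 bases (searched on both strands) in capitals.
Tnfrsf1a, chr6:125349473-125349772, plus strand: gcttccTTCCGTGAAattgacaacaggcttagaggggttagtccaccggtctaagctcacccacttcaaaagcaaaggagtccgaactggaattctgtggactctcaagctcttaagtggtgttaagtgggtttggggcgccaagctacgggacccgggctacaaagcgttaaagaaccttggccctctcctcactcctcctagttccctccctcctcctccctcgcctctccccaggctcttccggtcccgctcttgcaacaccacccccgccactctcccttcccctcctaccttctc
Tnfrsf1b, chr4:145246821-145247120, minus strand: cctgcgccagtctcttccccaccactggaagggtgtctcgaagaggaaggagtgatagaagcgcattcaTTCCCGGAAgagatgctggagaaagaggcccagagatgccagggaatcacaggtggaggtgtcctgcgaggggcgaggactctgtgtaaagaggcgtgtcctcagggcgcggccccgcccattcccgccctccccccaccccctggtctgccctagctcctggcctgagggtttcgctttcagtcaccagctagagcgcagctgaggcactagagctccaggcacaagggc
Ltb, chr17:35194257-35194556, plus strand: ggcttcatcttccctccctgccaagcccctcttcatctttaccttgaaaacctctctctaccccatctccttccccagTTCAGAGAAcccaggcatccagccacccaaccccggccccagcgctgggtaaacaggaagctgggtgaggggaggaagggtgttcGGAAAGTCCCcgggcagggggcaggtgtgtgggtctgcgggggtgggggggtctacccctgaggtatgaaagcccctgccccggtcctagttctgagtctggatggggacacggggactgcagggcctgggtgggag
Each of these windows holds the STAT motif, at position -244 from the start site in Tnfrsf1a, -181 in Tnfrsf1b and -172 in Ltb. It is found in 8.30% of all 32851 mouse promoters of that length and in 9 of the 36 promoters that RefSeq gives for 32 members. The NF-kB motif in Ltb begins at -87 on the opposite strand (GGAAAGTCCC in the window), and no other member's window holds these letters, which are found in 0.411% of all promoters. The hypoxia response core ACGTG is found in 12 of the 36 windows, beside 19.6% of all promoters, but in no window of a called member. Of the 9 called members, 6 have a promoter in the table, and these 3 are the ones with any of the 3 motifs. The windows shown are therefore no sample of the called members. Tnfsf13b, also lower in Pbrm1 mutants than in Vhl and double mutants, has 0 motifs in each of its windows. Tnfsf9, Tnfrsf10b and Tnfrsf22 have no entry. A match of letters describes the window and does not show a site in use.

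Tnfrsf10b, the mouse death receptor for TRAIL, rose in double mutants. It read 5.22, 4.96, 5.09 and 4.98 in the wild-type arrays, 5.65, 5.38, 5.04 and 5.12 in Vhl mutants, 5.40, 5.47, 5.45 and 5.03 in Pbrm1 mutants, and 5.94, 5.73, 5.75 and 6.02 in double mutants. All double mutant arrays were above all other arrays. The increase over wild type was 1.75-fold (log2 fold change 0.80 ± 0.14 SE, limma adjusted p = 3.7e-04) and held without any array and under each alternative that was run. Double mutants were 1.48-fold above Vhl mutants (0.57 ± 0.14, adjusted p = 0.014), a call that ended without double mutant replicate 4 (adjusted p = 0.058), with the mean of the arrays of a description number, when the 3 arrays of raised adipocyte markers were left out (adjusted p = 0.053 in both), and where at least a 1.5-fold change was asked for. They were 1.44-fold above Pbrm1 mutants (0.53 ± 0.14, adjusted p = 0.014), a call that ended without double mutant replicate 4 or Pbrm1 mutant replicate 4 (adjusted p up to 0.063) or with the 1.5-fold minimum. The single mutants did not pass against wild type: the difference was 0.24 in Vhl mutants (interval -0.05 to 0.52) and 0.28 in Pbrm1 mutants (interval -0.01 to 0.56). Tnfrsf10b lies on chromosome 14, as does Pbrm1, and the strain origin of that chromosome was not analysed here. Nor was it analysed around the floxed genes or for the chromosomes of other members, such as chromosome 6 with Tnfrsf1a and Ltbr. The limit is thus not particular to Tnfrsf10b, and it also applies between mutant groups. It covers the calls of Tnfrsf1a too.

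The other death domain receptors did not pass in any comparison. Fas, the receptor of Fas ligand, had group means from 6.35 to 6.53, and its difference between double mutants and wild type had an interval from -0.13 to 0.28. Its ligand Fasl was below background in every group, with group means from 3.29 to 3.58. Tnfrsf21, the death receptor DR6, had group means from 10.13 to 10.28; in Vhl mutants its arrays read 9.94, 10.04, 10.54 and 10.60, which left the group mean close to wild type (difference 0.05, interval -0.19 to 0.29). Tnfrsf25 (group means 5.11 to 5.25), Ngfr, the neurotrophin receptor p75 (4.59 to 4.85), and Edar, the ectodysplasin receptor (4.70 to 5.03), were not called either. Tnfsf15, the ligand of Tnfrsf25, read 6.43, 6.63, 5.80 and 5.97 in double mutants against 5.76 to 5.96 in wild type, so that 2 double mutant arrays stood above the rest, and it did not pass the test (difference 0.35, interval 0.05 to 0.64, adjusted p = 0.13).

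Among the decoy and soluble receptors, 1 of 4 was called. Tnfrsf22 is a mouse receptor without a death domain that can bind TRAIL. It read 5.37, 5.16, 5.16 and 5.01 in the wild-type arrays, 5.19, 5.57, 5.49 and 5.65 in Vhl mutants, 5.32, 5.72, 5.70 and 5.92 in Pbrm1 mutants, and 6.04, 6.10, 5.44 and 5.80 in double mutants. All double mutant arrays exceeded all wild-type arrays, the difference was 1.59-fold (log2 fold change 0.67 ± 0.16 SE, limma adjusted p = 0.0067), and the call held without any array. The Pbrm1 mutants differed from wild type by 0.49, with an interval from 0.16 to 0.81, and missed the threshold (adjusted p = 0.088). Tnfrsf22 lies on chromosome 7 with its close relatives Tnfrsf23 and Tnfrsf26, and probes for such similar genes can read more than 1 of them, so this value is uncertain as to the gene. Tnfrsf23 and Tnfrsf26 were not called in any comparison (double mutants against wild type, 0.41 with an interval from -0.07 to 0.88 and 0.19 with an interval from -0.13 to 0.52). Tnfrsf11b, the soluble decoy osteoprotegerin, had group means from 4.80 to 5.0 and was not called, and Tnfsf11, its ligand RANKL, was below background in every group.

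Of the 11 TRAF-binding receptors of lymphoid and myeloid cells, Tnfrsf1b (above) and Tnfrsf14 were called. Tnfrsf14, the herpesvirus entry mediator HVEM, is a receptor of the ligand Tnfsf14. It read 5.41, 5.27, 5.43 and 5.73 in the wild-type arrays, 5.45, 5.42, 5.33 and 5.37 in Vhl mutants, 5.95, 5.46, 5.87 and 5.52 in Pbrm1 mutants, and 5.87, 5.96, 6.00 and 5.66 in double mutants. The double mutants were clear of the Vhl mutants but overlapped the wild-type arrays. Tnfrsf14 was 1.39-fold higher in double than in Vhl mutants (log2 fold change 0.47 ± 0.13 SE, limma adjusted p = 0.028) and rose 1.32-fold in double mutants against wild type (0.40 ± 0.13, adjusted p = 0.042). The first call ended without double mutant replicate 1, 2 or 3 or Vhl mutant replicate 2 or 3 (adjusted p up to 0.087), with the mean of the arrays of a description number (0.13) and when the 3 arrays of raised adipocyte markers were left out (0.15), and 10 of 14 other settings kept it. The second ended without wild-type replicate 1, 2 or 3, double mutant replicate 1, 2 or 3, or Vhl mutant replicate 2 (adjusted p up to 0.12), with the mean of the arrays of a description number (0.14) and when the 3 arrays of raised adipocyte markers were left out (0.16). It also ended with centred and with quantile-normalized arrays, and 7 of 14 other settings kept it. Tnfsf14 was not called and had group means from 3.95 to 4.14.

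Cd40, the costimulatory receptor of B cells and macrophages, was higher in every Vhl mutant array (5.45 to 5.82) than in any wild-type array (5.24 to 5.43), yet the difference of 0.24, with an interval from -0.01 to 0.48, did not pass the test (adjusted p = 0.32). Its ligand Cd40lg was below background in every group. The costimulatory receptors Tnfrsf4 (OX40), Tnfrsf8 (CD30) and Tnfrsf18 (GITR) had group means from 5.02 to 5.26, from 3.84 to 4.03 and from 4.84 to 4.98, and none was called. Of the 4 TRAF-binding receptors of stroma, bone and epithelium, 0 were called: Tnfrsf11a, the receptor RANK, had group means from 5.43 to 5.67 and Tnfrsf19 from 4.58 to 4.70.

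Arrays that did not overlap between groups were also counted. In double mutants all 4 arrays exceeded all wild-type arrays for 7 of the 41 members, beside 9.21% of all genes. They were 6 of the 7 called ones and Ltbr, and no member was lower in this way, beside 8.53%. In Vhl mutants all 4 arrays exceeded all wild-type arrays for 5 of the 41 members, beside 5.07% of all genes. These were Tnfsf13b, Tnfsf9, Tnfrsf4, Edar and Cd40, and none was lower in this way, beside 5.71%. In Pbrm1 mutants 2 of the 41 members were higher in this way (Ltbr and Tnfsf10), beside 5.0% of all genes. Another 2 of the 41 were lower (Tnfrsf1b and Tnfrsf1a), beside 6.85%. Of the 34 members not called in double mutants against wild type, 22 were at or above background in both groups. Their differences ran from -0.22 (Ngfr) to 0.41 (Tnfrsf23), 3 had an unadjusted p under 0.05 (Ltb, Ltbr and Tnfsf15), and every interval lay within a 2-fold change in either direction. Tnfsf8, the ligand of CD30, is given as levels: its arrays read 4.27, 3.62, 3.99 and 3.81 in double mutants, and its means of 3.48, 3.43 and 3.48 in wild-type, Vhl mutant and Pbrm1 mutant kidneys were below background.

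**Figure D2:**
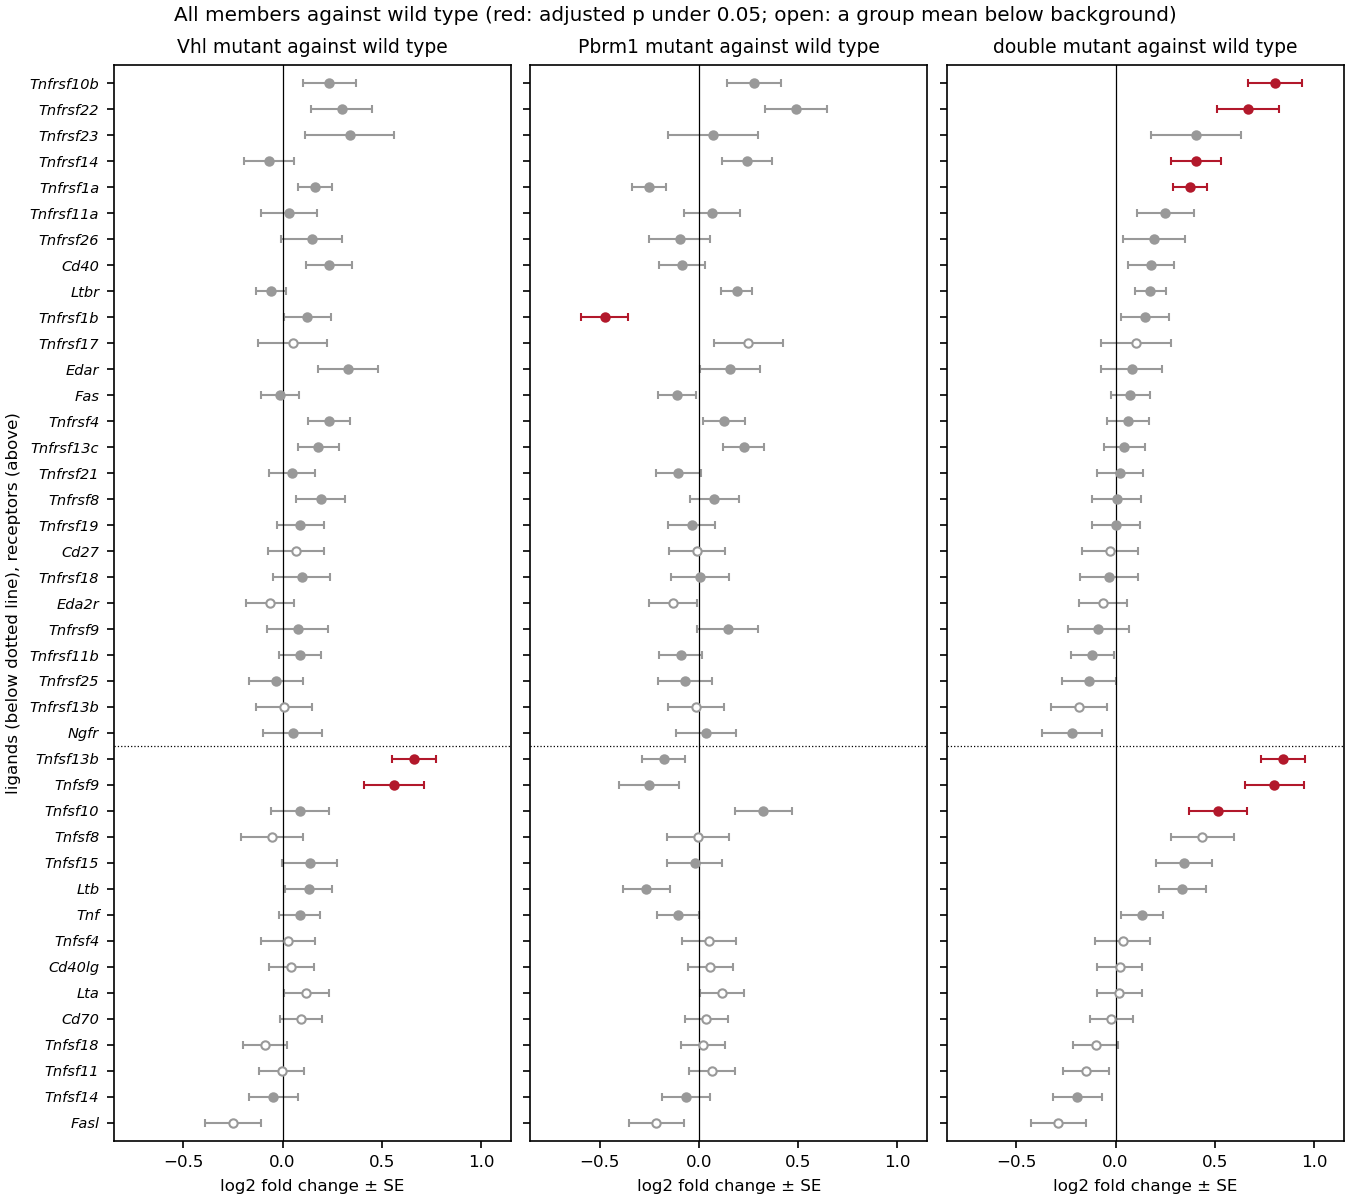
Log2 fold change ± SE (horizontal axis) of all 41 members in Vhl, Pbrm1 and double mutants against wild type, n = 4 arrays per group, receptors above the dotted line and ligands below it; red points had an adjusted p under 0.05, and open points are members with a group mean below background, for which no fold is read. The 7 red points of the double mutants are all above 0, and the red point of the Pbrm1 mutants, Tnfrsf1b, is below 0.

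The genes that carry the signal inside the cell were taken from lists of the pathway. Their counts stand beside 6.64% of all genes higher and 5.56% lower in double mutants against wild type, 2.04% and 1.79% in Vhl mutants, and 1.59% and 2.45% in Pbrm1 mutants. Of 5 such lists, NF-kB subunits had the highest median in double mutants. Against wild type, 3 of 4 NF-kB subunits (75.0%) rose and 0 fell (median log2 fold change 0.59 beside -0.02 over all genes): Nfkb2, the subunit of the noncanonical branch that BAFF and lymphotoxin receptors use, by 0.75 ± 0.09 SE (limma adjusted p = 6.6e-06), Rela by 0.62 ± 0.09 and Rel by 0.56 ± 0.13. Nfkb2 also rose in Vhl mutants (0.33 ± 0.09, adjusted p = 0.038). No subunit was called in Pbrm1 mutants, where Rela differed by 0.28 with an interval from 0.09 to 0.47 (adjusted p = 0.10). Rel, Rela and Nfkb2 were also higher in double than in Vhl mutants, by 0.46, 0.41 and 0.41.

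Of the 19 inhibitors and ubiquitin editors measured, 7 (36.8%) rose and 0 fell in double mutants (median 0.17), led by the NF-kB cofactor Bcl3 (1.16 ± 0.13 SE, limma adjusted p = 3.9e-06), the ubiquitin editor A20 encoded by Tnfaip3 (1.0 ± 0.12, adjusted p = 8.3e-06), the inhibitor Nfkbie (0.97 ± 0.12) and the ubiquitin ligase Birc3 (0.80 ± 0.10). In Vhl mutants 3 rose, Tnfaip3 (0.66), Nfkbie (0.49) and Birc3 (0.41). In Pbrm1 mutants 2 rose, Bcl3 (0.56 ± 0.13, adjusted p = 0.016) and Tnfaip3 (0.46 ± 0.12, adjusted p = 0.034). Tnfaip3, a feedback inhibitor that TNF itself induces, was thus called higher than wild type in each mutant group, but the Pbrm1 mutant call ended under other settings (below). Tnf was called in none of the groups. The cause of the change in Tnfaip3 was not tested.

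Of the 22 adaptors, kinases and caspases, 2 rose and 1 fell in double mutants (median 0.07), a share of 13.6% that is near that of all genes. Traf1, an NF-kB-induced adaptor, rose by 0.50 ± 0.16 SE (limma adjusted p = 0.041) and the kinase partner Tab2 by 0.23 ± 0.07. Bid, which links death receptors to mitochondria, fell by 0.47 on the log2 scale (adjusted p = 0.0017). In Vhl mutants Bid and Traf6 fell, by 0.42 and 0.33 on the log2 scale, and 0 of 22 rose. In Pbrm1 mutants the caspase gene Casp6 fell by 0.30 on the log2 scale (adjusted p = 0.043). Of the 8 shedding and processing proteases, 3 (37.5%) rose in double mutants: the membrane metalloprotease Mmp14 (1.06 ± 0.17, adjusted p = 2.1e-04), Rhbdf2, a partner of the TNF sheddase (0.58 ± 0.11, adjusted p = 0.0014), and Adam10 (0.23 ± 0.06). The sheddase gene itself, Adam17, differed by 0.20 with an interval from 0.02 to 0.38 (adjusted p = 0.16).

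Genes known to respond to TNF and NF-kB held the largest single change of the lists. Of 20 measured, 7 rose and 2 fell in double mutants (45.0% called, median 0.20), led by the lipocalin Lcn2 (3.13 ± 0.17 SE, limma adjusted p = 3.3e-10), the adhesion molecule Vcam1 (1.46 ± 0.13, adjusted p = 1.9e-07) and the chemokines Ccl5 (0.92 ± 0.16) and Cxcl1 (0.83 ± 0.15). The genes that fell, named after their values were seen, were Sod2, the mitochondrial superoxide dismutase (-0.27 ± 0.05, adjusted p = 6.2e-04), and Tnfaip8 (-0.50 ± 0.13, adjusted p = 0.014). In Vhl mutants 3 rose and 1 fell: Lcn2 (1.73 ± 0.17), Vcam1 (0.86 ± 0.13), Ccl5 (0.72 ± 0.16) and, lower, the early response gene Ier3 (-0.71 ± 0.16). In Pbrm1 mutants 0 rose and Ier3 fell (-0.77 ± 0.16, adjusted p = 0.0077). The interaction was called for Lcn2 (1.78 ± 0.24), Ier3 (1.51 ± 0.23) and Vcam1 (0.92 ± 0.19). Unlike Lcn2 and Vcam1, Ier3 was lower in both single mutants, so its interaction does not mean a rise over wild type in double mutants. These genes also answer to other signals, and none of these values measures signalling by a TNF family receptor.

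Several pathway calls ended under other settings. Without the 3 arrays of raised adipocyte markers, the calls of Nfkb2 (adjusted p = 0.095), Nfkbie (0.10), Bid (0.052) and Traf6 (0.11) in Vhl mutants ended, as did those of Bcl3 (0.089), Tnfaip3 (0.17) and Casp6 (0.18) in Pbrm1 mutants and those of Rel (0.11) and Rela (0.084) between double and Vhl mutants. With the mean of the arrays of a description number, all of these but Rela ended, and so did Ier3 in both single mutant groups (0.18 and 0.14) and for the interaction (0.061), Vcam1 for the interaction (0.059), Birc3 in Vhl mutants (0.099), and Traf1, Tab2, Adam10 and Tnfaip8 in double mutants (0.079 to 0.15). Leaving out 1 array ended, in at least 1 case each, the calls of Nfkb2, Nfkbie, Birc3, Traf6, Ccl5 (Vhl mutant replicate 3) and Ier3 in Vhl mutants, of Bcl3, Tnfaip3 and Casp6 in Pbrm1 mutants, of Traf1 and Tab2 in double mutants, and of Rel between double and Vhl mutants. In double mutants against wild type, the first and second of these settings each left 3 of 4 NF-kB subunits and 6 of 19 inhibitors higher.

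**Figure D3:**
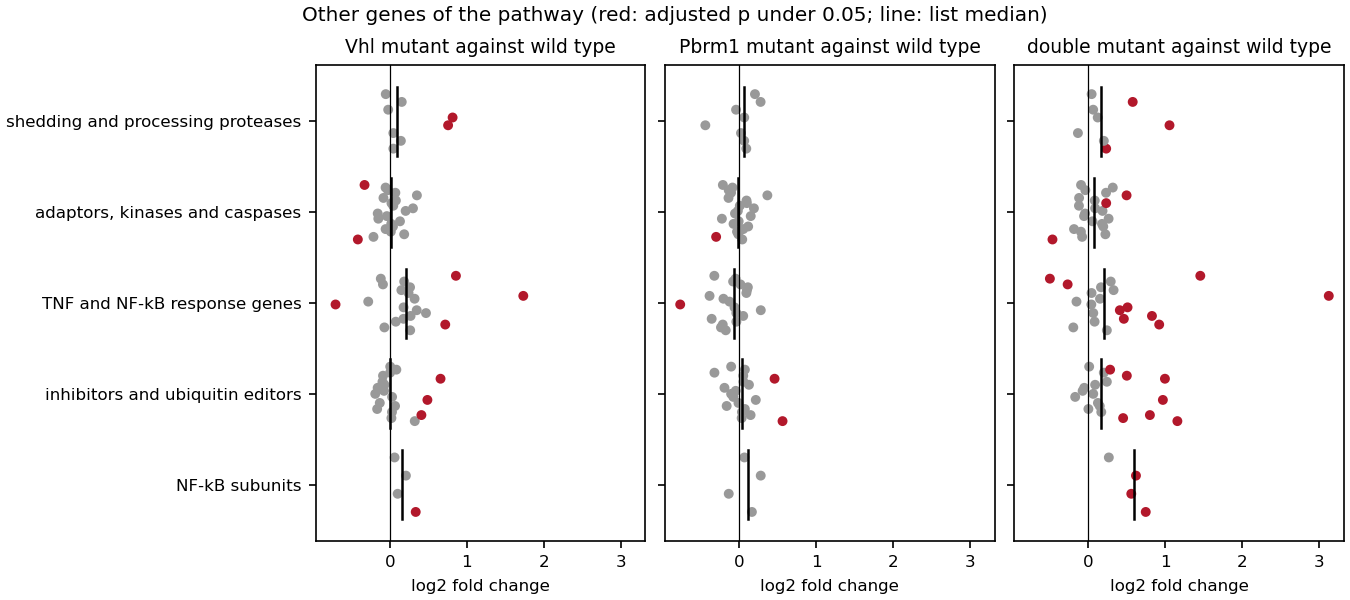
Log2 fold change against wild type (horizontal axis) of each gene in 5 pathway lists, for Vhl, Pbrm1 and double mutants, n = 4 arrays per group; each point is a gene, red where its adjusted p was under 0.05, and the black line is the median of the list. In double mutants 3 of 4 NF-kB subunits and 7 of 19 inhibitors are red and above 0, and the point farthest to the right is Lcn2 at 3.13.

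In whole cortex, fewer cells of a type and less RNA per cell cannot be told apart, and several members are made by cells other than tubules. Macrophage markers moved with the members that were high in Vhl and double mutants: 10 of 12 rose in Vhl mutants, 6 of 12 in double mutants and 1 of 12 in Pbrm1 mutants against wild type, and 0 fell. Without the 3 arrays of raised adipocyte markers the counts were 8, 6 and 0. The mean level of the list per array ran from 5.77 to 6.01 in wild-type, from 6.41 to 6.93 in Vhl mutant, from 5.81 to 5.88 in Pbrm1 mutant and from 6.46 to 6.73 in double mutant kidneys, with 0 of its genes below background. The same 2 groups were the high ones for Tnfsf13b and Tnfsf9. Dendritic cell markers ran from 5.18 to 5.33, from 5.31 to 5.53, from 5.27 to 5.39 and from 5.42 to 5.63 in the same groups, with 1, 1 and 3 of 6 called higher in Vhl, Pbrm1 and double mutants. T cell markers were called in 0 of 7 cases against wild type in each mutant group.

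Endothelial markers, which belong to cells that also express Tnfrsf1b and Vcam1, rose for 4 of 8 genes in Vhl mutants and 4 of 8 in double mutants, and 1 of 8 fell in Pbrm1 mutants. Their mean level ran from 7.83 to 7.93 in wild-type, from 8.22 to 8.38 in Vhl mutant, from 7.66 to 7.82 in Pbrm1 mutant and from 8.18 to 8.30 in double mutant kidneys. Fibroblast and pericyte markers rose for 5 and 6 of 8 genes in Vhl and double mutants and 0 in Pbrm1 mutants. Markers of injured tubule rose for 4 of 7 genes in Vhl mutants and 7 of 7 in double mutants; their mean level, from 5.30 to 5.52 in wild-type and from 5.26 to 5.70 in Pbrm1 mutant arrays, was 5.98 to 6.45 in Vhl mutants and 7.01 to 7.31 in double mutants, with Lcn2 on this list as well as on that of response genes. Markers of other tubule segments fell as well. Of the 5 intercalated cell markers, 4 fell in double mutants (median -0.68) and 2 in Vhl mutants, and their mean level was 7.96 to 8.12 in wild-type, 7.30 to 7.68 in Vhl mutant, 7.84 to 7.99 in Pbrm1 mutant and 7.21 to 7.32 in double mutant arrays. Of the 4 principal cell markers 2 fell in double mutants, and of the 4 distal convoluted tubule markers 2 fell in double mutants and 2 in Pbrm1 mutants, the latter 0 with the mean of the arrays of a description number. Of the 4 thick ascending limb markers 2 rose and 1 fell in double mutants. Neutrophil and NK cell markers lay close to background, with S100a8 and Retnlg or Gzma and Eomes below it in every group. The part of macrophage, endothelial, stromal, tubule and injured tubule cells in the changes of Tnfsf13b, Tnfsf9, Tnfrsf1a, Tnfrsf1b, Tnfrsf10b and the pathway genes was not tested.

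**Figure D4:**
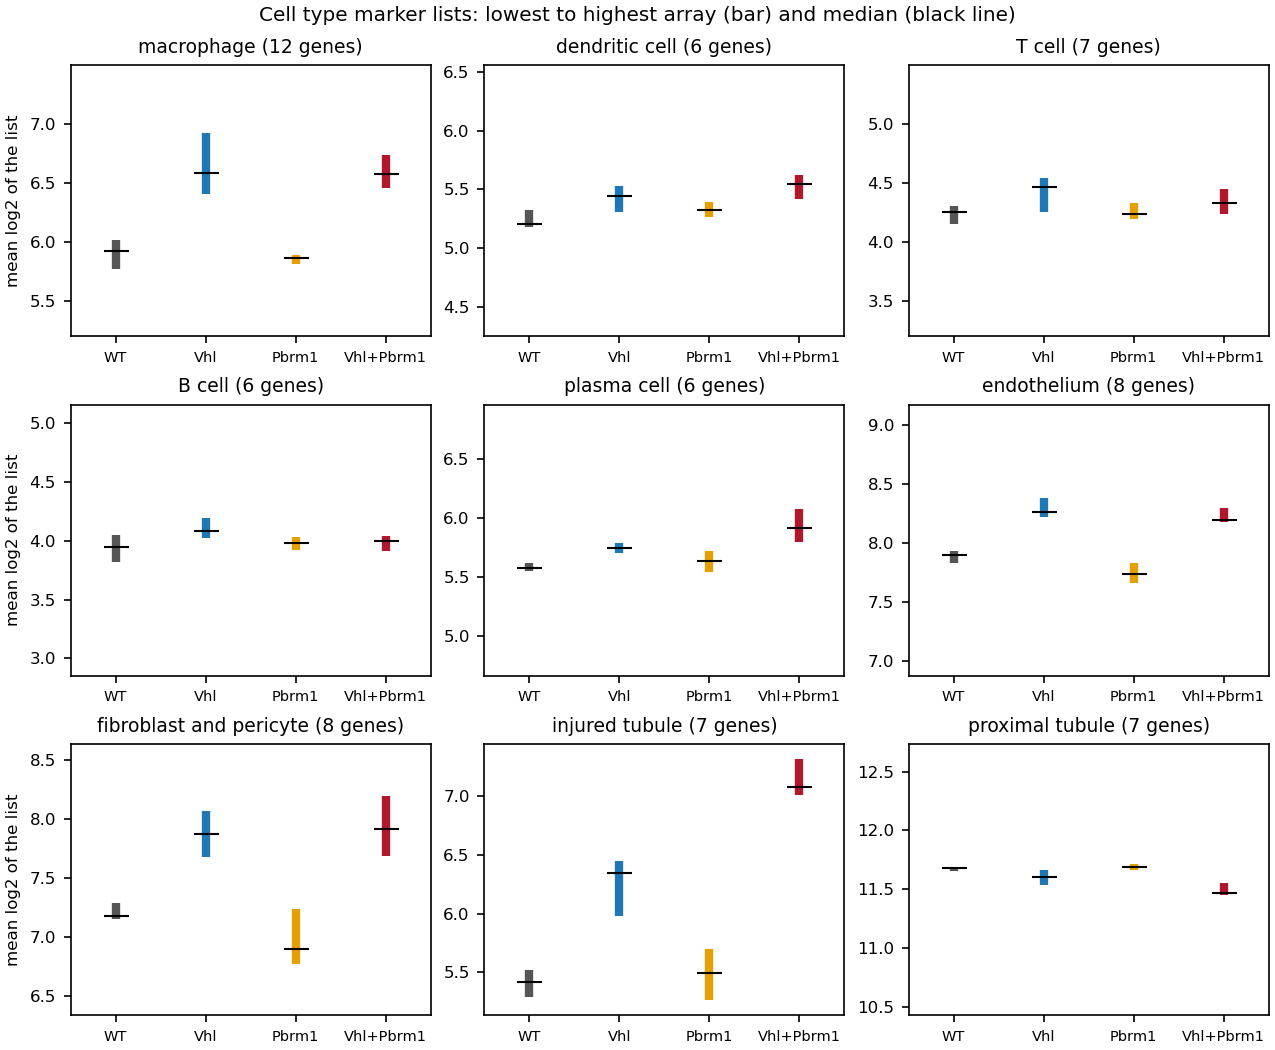
Mean log2 expression of 9 cell type marker lists (vertical axis, panels share a span but not a level); the coloured bar runs from the lowest to the highest of the 4 arrays of a genotype and the black line is their median. Macrophage, endothelial and fibroblast lists are higher in the Vhl and double mutants, the injured tubule list is highest in double mutants at 7.01 to 7.31, and the B cell list stays between 3.82 and 4.19.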

How the data were processed

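Total RNA of kidney cortex was labelled with biotin and hybridized to Affymetrix arrays, per the labels' protocols. The authors deposited log2 values, which the submitters' processing notes credit to RMA, the robust multi-array average, and to version 1.4 of Affymetrix Expression Console. Of 41345 probe sets, 23521 had 1 gene symbol and were used. The 1814 with several symbols and the 16010 that the annotation does not list were left out, and 1 probe set per gene, that of highest mean, gave 22180 genes. No values were renormalized or filtered.

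Groups came from the labels. limma 3.58.1 (R 4.3.3) was fitted to all genes and 16 arrays, with genotype as a fixed effect, the number in the description as a random block (estimated correlation 0.0838) and a variance trend. The fit weights double mutant replicate 4 more, so its differences depart slightly from those of group means. P-values were adjusted over all genes by Benjamini-Hochberg, and the script was tested on simulated data. Precision is limited by having 4 arrays per group, from perhaps 2 animals. For the members, the median standard error of double mutants against wild type was 0.12.

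Every member called in any comparison was named, with Tnf, its receptors, ligands or receptors of called members, and up to 4 called genes per pathway list and comparison; Tnfsf8, Tnfsf15, Tnfrsf21, the other uncalled members, Sod2, Tnfaip8 and the named marker genes were added after their values were seen. Members and lists were chosen with earlier results of these data known. Alternatives were other blocks, averaging, filters, normalizations, weights, the groups fitted, a 1.5-fold minimum and each array left out. Leaving out the arrays of raised adipocyte markers, and placing double mutant replicate 3 under the number of replicate 4, were added after seeing the data. Tables were made with pandas 2.3.3 and figures with matplotlib 3.10.9 (Python 3.11.15).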

Additional observations from a re-analysis of the deposited data

Results flagged for a closer look

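Of 40 groups of 4 arrays examined for the 9 called genes and Tnf, 2 held an array that stood apart from the other 3, where chance gives about 1 in 20. Tnfrsf10b read 5.03 in Pbrm1 mutant replicate 4, against 5.40 to 5.47 in the other Pbrm1 mutant arrays. Without that array the higher level of double than Pbrm1 mutants was no longer called. Tnfrsf1a read 7.26 in wild-type replicate 4, against 7.39 to 7.40 in the other wild-type arrays, and the higher level of double mutants than wild type was called with or without it.

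The estimated change of Tnfrsf1a with loss of Pbrm1 had a different sign in kidneys with and without Vhl. The test of that difference, the interaction, gave 0.46 ± 0.12 SE on the log2 scale (limma adjusted p = 0.044): Pbrm1 mutants differed from wild type by -0.25 and double mutants from Vhl mutants by 0.21, both with no call. The interaction call held in 5 of the 16 fits that left out an array, and ended in the others. Of 13 other settings, 4 kept it. Wild type enters the interaction, so strain and genotype cannot be told apart in it.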

How the results depend on the processing

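Over the 24 called results of single members, 615 of 713 alternatives kept the call, 98 lost it and 0 reversed the direction. The count of members called was 2 in Vhl mutants against wild type (1 to 2 with each array left out in turn), 1 in Pbrm1 mutants (0 to 2), 7 in double mutants (5 to 7), 2 in double against Vhl mutants (1 to 3), 6 in double against Pbrm1 mutants (5 to 7), 5 in Vhl against Pbrm1 mutants (4 to 5) and 1 for the interaction (0 to 1). With arrays averaged per description number the count was 1 in Vhl mutants, 0 in Pbrm1 mutants, 5 in double mutants, 0 in double against Vhl mutants, 6 in double against Pbrm1 mutants, 4 in Vhl against Pbrm1 mutants and 0 for the interaction. Calls over all genes fell too, from 851 to 246, 895 to 274, 2706 to 1729, 1408 to 710, 2260 to 1398, 1656 to 916 and 583 to 99 in that order. With double mutant replicates 2 and 3 averaged it was 1 in Vhl mutants, 1 in double against Vhl mutants and 0 for the interaction. It was 1 in Vhl mutants and 0 for the interaction with genes at or above the median level, centring, quantile normalization, no trend, or double mutant replicate 3 under the number of replicate 4, and 1 in Vhl mutants with the compared groups alone. Without the arrays of raised adipocyte markers the count of members was 1 in Vhl mutants, 0 in Pbrm1 mutants, 6 in double mutants, 0 in double against Vhl mutants, 7 in double against Pbrm1 mutants, 4 in Vhl against Pbrm1 mutants and 0 for the interaction. Over all genes 564, 501, 2023, 830, 1576, 1133 and 303 calls were left in that order. A 1.5-fold minimum left 1 in Vhl, 0 in Pbrm1 and 4 in double mutants, 0 in double against Vhl mutants, 3 in Vhl against Pbrm1 mutants and 0 for the interaction. Apart from fewer arrays or genes tested and the fold minimum, the cause was not tested.

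Replicate numbers do not pair the samples: over 24 same-numbered pairs across groups the correlation of deviations ran from -0.07 to 0.06. Within a group, deviations from the group mean tend to be negatively correlated. There the median was -0.17 over 9 pairs of the same description number and -0.43 over 15 pairs of different numbers. With the replicate number as a block, 2, 1, 8, 3, 7, 5 and 1 members were called in the order above, the gain being Tnfsf8 each time, a gene below background outside the double mutants. Of 75 pathway calls, up to 4 per list and comparison, 40 were kept by every alternative other than the 1.5-fold minimum, 18 ended without the arrays of raised adipocyte markers and 30 with arrays averaged per description number. The number of arrays limits what can be called. For the members, the median standard error of double mutants against wild type was 0.12, and differences well above it can go uncalled. The largest such difference above background was 0.41 (Tnfrsf23). Signals near background are the least certain.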
